A study of Mus musculus with 30 samples.

Results

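Amino acid supply and protein folding are watched by a pair of linked stress pathways, and 36 genes of these pathways were followed in mouse CD4 T cells. They were taken by symbol from a list of named genes and not by a cutoff on their measured values. Earlier results of these data were known when the list was chosen. All 36 were found in both RNA count tables, which held 25865 and 25860 gene symbols. Of these, 24 form the amino acid arm around the transcription factor ATF4 and 12 the endoplasmic reticulum (ER) chaperone arm. Spleens and lymph nodes gave the cells, from controls (WT) and from a knockout of protein kinase A (labelled PKAKO, here KO), the kinase that cyclic AMP activates. Naive CD4 T cells were isolated and sorted, and were profiled as naive cells, after stimulation with anti-CD3 and anti-CD28 for 3 days (activated), or after resting in IL-7 for 3 days and then receiving forskolin, which raises cyclic AMP, at 1 ug/mL for 4 h. All 3 conditions have RNA libraries, and the naive and activated cells also have ATAC-seq libraries of open chromatin, with 3 libraries in every group of genotype, condition and assay. The labels give no strain, age or sex, do not name the PKA gene removed or the promoter of any Cre, and leave unsaid whether a group's libraries are separate animals, so the p-values reflect spread among these libraries, which may be technical. No library of rested cells without forskolin was analysed here, so the effects of rest and of forskolin cannot be told apart.

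The kinases GCN2 (gene Eif2ak4), PERK (Eif2ak3), PKR (Eif2ak2) and HRI (Eif2ak1) phosphorylate the initiation factor eIF2 alpha when amino acids run short, unfolded protein builds up in the ER, viral RNA appears or heme is lacking. Global translation then falls while the messenger RNA of ATF4 is translated more, and ATF4 raises genes for amino acid synthesis and import. The ER also signals through IRE1 (Ern1), which splices Xbp1 messenger RNA, and through ATF6, and these factors raise the chaperones and folding enzymes of the ER. T cells that leave quiescence raise amino acid transporters and 1-carbon enzymes as they grow, so these genes are well known in this cell type. Gene counts do not show protein, phosphorylation, the translation of Atf4 or the splicing of Xbp1.

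RNA libraries held 7665955 to 11950488 counts in named genes, and ATAC libraries 18522373 to 25318916 counts in sites. Levels are given as CPM, a gene's count divided by the library's total over named genes and multiplied by 1000000. Prkaca, the gene of PKA's main catalytic subunit, lay at 0.92 to 3.9 CPM in the 9 KO libraries and at 29.3 to 55.5 CPM in the 9 WT libraries. All 8 markers of CD4 T cells had counts in every group, and the 10 myeloid markers summed to at most 11.8 CPM in any library. The 6 markers of CD8 T and NK cells summed to 27.8 to 39.7 CPM in naive cells and 17.5 to 31.1 CPM with forskolin. In activated cells they summed to 178 to 256 CPM in WT and 140.5 to 211 CPM in KO. Ms4a1 and Pax5, defining B cell genes, were both at 0 in forskolin-treated WT cells and Pax5 in activated KO cells, while all 10 B cell markers had counts in the other 4 groups. The 10 markers summed to 108 to 340 CPM, most of it from the immunoglobulin gene Ighm at 105 to 332 CPM. In bulk RNA a change in the share of cells of a type and a change in RNA per cell cannot be told apart.

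Replicate 1 of the activated cells stood apart in both genotypes. Summed over the 24 amino acid genes, the 3 activated WT libraries held 5647, 4451 and 4468 CPM and the 3 activated KO libraries 5523, 4516 and 4539 CPM, in the order of replicates 1, 2 and 3, which is kept for all values below. In 23 of the 24 genes replicate 1 was the highest activated library of both genotypes, against 5 of 12 genes of the ER arm and 20.5% of all 11980 tested genes. Asns, for asparagine synthetase, was at 234 CPM in replicate 1 of WT and at 118 and 125 CPM in the others, and at 206 CPM in replicate 1 of KO against 133 and 123 CPM. In naive cells replicate 1 was the highest of both genotypes in 10 of the 24 genes, against 23.7% of all tested genes. Since replicate 1 was high in both genotypes alike, the RNA tests of naive and activated cells were also made without its 2 libraries. The tests that set forskolin-treated beside activated cells and the ATAC tests were not made in that way.

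**Figure D1:**
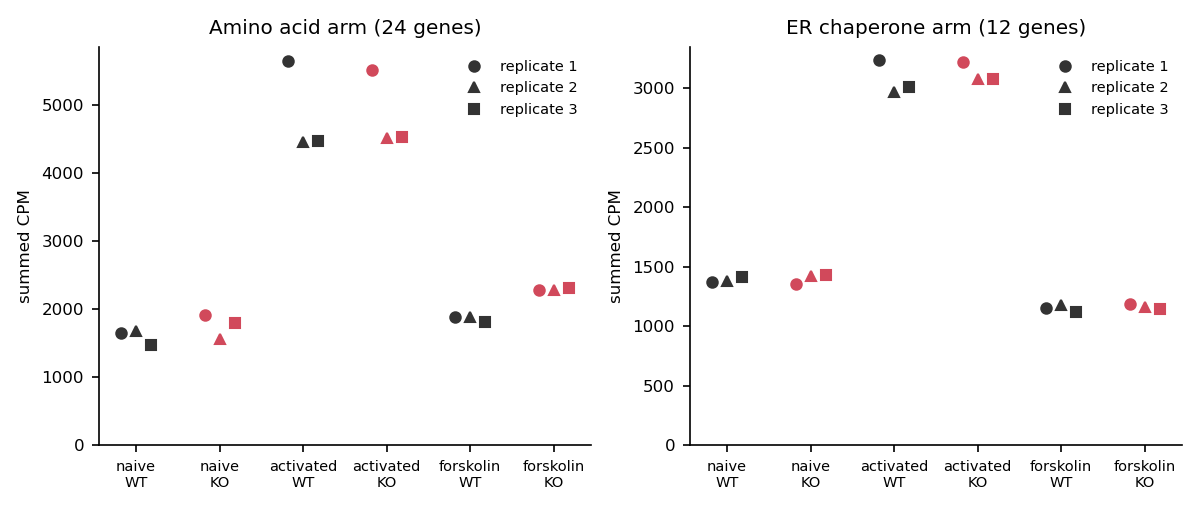
Summed level of the amino acid arm (left, 24 genes) and the ER chaperone arm (right, 12 genes) in CPM for each RNA library, with WT in black, KO in red and a marker shape for each replicate number. Activated libraries are highest in both arms, and replicate 1 of the activated cells, at 5647 CPM in WT and 5523 CPM in KO, lies above its group in the amino acid arm.

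Activation of WT cells raised most of the amino acid arm. Of 24 members 21 rose, Ddit4 fell, and Ddit3 and Slc38a2 did not pass the test, where 82.6% of all tested genes were called, 42.3% as higher and 40.3% as lower (edgeR quasi-likelihood test, Benjamini-Hochberg adjusted p under 0.05). Of the 24, 8 passed the filter on low counts through the activated libraries alone and so had to differ (Asns, Chac1, Pycr1, Cth, Cbs, Slc7a11, Vldlr and Nupr1), and 13 of the other 16 rose. The median log2 fold change of the 24 genes was 2.65, against 0.03 for all tested genes. In KO cells 22 members rose and 1 fell, where 82.1% of all tested genes were called, 42.3% as higher and 39.8% as lower, with a median of 2.82 for the arm and 0.04 for all genes. The 22 and the medians of 2.65 and 2.82 include the 8 members whose rise the filter fixed in advance, so these medians overstate the rise of the others. Tested as the interaction of genotype and activation, 0 of the 24 members differed between WT and KO in this step, where 3.7% of all genes did, 1.18% upward and 2.52% downward (smallest adjusted p 0.213, with 2 members under an unadjusted p of 0.05, and 0 members called with DESeq2 either). The interaction could not be estimated for Cth, Vldlr and Nupr1, which had 0 naive counts. For Slc7a11, Cbs, Chac1 and Asns its SE was 1.57 to 3.28 on the log2 scale, too wide to show a difference.

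Among the regulators, Atf4 itself stood at 103, 87.6 and 81.8 CPM in naive WT and at 398, 298 and 298 CPM in activated WT cells. In KO it was at 105, 74.8 and 82.5 CPM in naive and at 355, 293 and 303 CPM in activated cells. The naive and activated libraries did not overlap in either genotype, and the log2 fold change was 1.74 ± 0.13 (SE) in WT and 1.73 ± 0.13 in KO (adjusted p = 2.13e-08 and 2.44e-08). Trib3, a pseudokinase that dampens ATF4 activity, went from 6.35 ± 1.41 to 37.6 ± 20.0 CPM in WT (mean ± SD, n = 3), a log2 fold change of 2.46 ± 0.42. Sesn2, a leucine sensor that restrains the growth kinase mTORC1, went from 6.19 ± 1.41 to 50.1 ± 11.3 CPM, a log2 fold change of 2.90 ± 0.22. Ddit4, another brake on mTORC1, went the other way. It was at 549, 669 and 465 CPM in naive and 168, 133 and 124 CPM in activated WT cells, a log2 fold change of -2.11 ± 0.14 (adjusted p = 2.29e-09), and at -2.59 ± 0.14 in KO.

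Ddit3, which encodes CHOP, the factor tied to cell death under prolonged stress, moved little. It was at 23.8, 19.2 and 17.5 CPM in naive and 36.1, 22.5 and 20.4 CPM in activated WT cells, and at 20.9, 18.5 and 20.5 CPM in naive and 47.9, 26.1 and 30.9 CPM in activated KO cells. The WT groups overlapped and did not pass (log2 fold change 0.27 ± 0.25, adjusted p = 0.337), while the KO groups did not overlap and passed (0.68 ± 0.25, adjusted p = 0.023). The difference between the genotypes in this step was not called (adjusted p = 0.645), and the KO call was lost under 5 of 18 alternatives: without the low-count filter, without any 1 of the 3 naive KO libraries, and without replicate 1 of activated KO (adjusted p up to 0.0862, log2 fold change down to 0.40). Ddit3 overlaps the genes Mbd6 and Mars1 in the annotation, and the strand used in counting is not given in the sources used here, so their reads may be shared.

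Several enzymes and effectors were close to undetectable in naive cells. Asns had 0, 0.0886 and 0.121 CPM in naive WT, from 2 counts in all, and the activated to naive ratio was 2324 with a 95% counting interval of 643 to 19200. Chac1, which degrades glutathione, was at 0, 0 and 0.121 CPM in naive WT and 25.2, 13.9 and 14.5 CPM in activated WT, and at 0 counts in naive KO and 25.1, 13.3 and 17.4 CPM in activated KO. Every activated library lay far above every naive one for both genes. Cth, which makes cysteine from cystathionine, had 0 counts in all 6 naive libraries and reached 59.8 ± 18.8 CPM in activated WT and 53.7 ± 7.26 CPM in activated KO cells. Against a floor of 3 counts over the naive group, it was at least 581-fold higher in WT and at least 494-fold higher in KO. Vldlr, a lipoprotein receptor gene, and Nupr1, a stress-induced nuclear protein gene, also had 0 naive counts, and were at least 58.3-fold and 8.03-fold higher in activated WT. Cbs, the enzyme before Cth, and Slc7a11, the cystine importer, rose from 1 and 2 naive counts in WT, with ratios of 45.5 (7.80 to 1831) and 52.2 (14.1 to 436). Floors and these intervals cover counting error only.

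Enzymes of serine and 1-carbon metabolism rose from readily measured naive levels. Psat1, the second enzyme of serine synthesis, went from 31.0 ± 2.91 to 498 ± 63.0 CPM in WT (log2 fold change 3.88 ± 0.11, adjusted p = 2.64e-15). Phgdh, the first enzyme of that route, went from 83.9 ± 15.9 to 551 ± 54.1 CPM (2.59 ± 0.13), and Psph, the last, from 22.4 ± 2.02 to 86.2 ± 20.8 CPM (1.83 ± 0.16). The mitochondrial 1-carbon enzymes Shmt2 and Mthfd2 had log2 fold changes of 2.75 ± 0.10 and 2.32 ± 0.16. In proline synthesis, Pycr1 rose by 3.54 ± 0.46 and Aldh18a1 by 1.52 ± 0.13 on the log2 scale. Psph overlaps Cct6a and Shmt2 overlaps Ndufa4l2 in the annotation. Among the transporters, Slc7a5, the light chain of the large neutral amino acid carrier, had 2.71 ± 0.18, and its heavy chain Slc3a2 had 1.15 ± 0.11. The arginine and lysine carrier Slc7a1 had 2.02 ± 0.09 and the glutamine carrier Slc1a5 1.47 ± 0.11. Slc38a2, a carrier of small neutral amino acids, was at 163 ± 16.2 CPM in naive and 176 ± 7.62 CPM in activated WT cells and did not pass (log2 fold change -0.01 ± 0.08, adjusted p = 0.903).

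**Figure D2:**
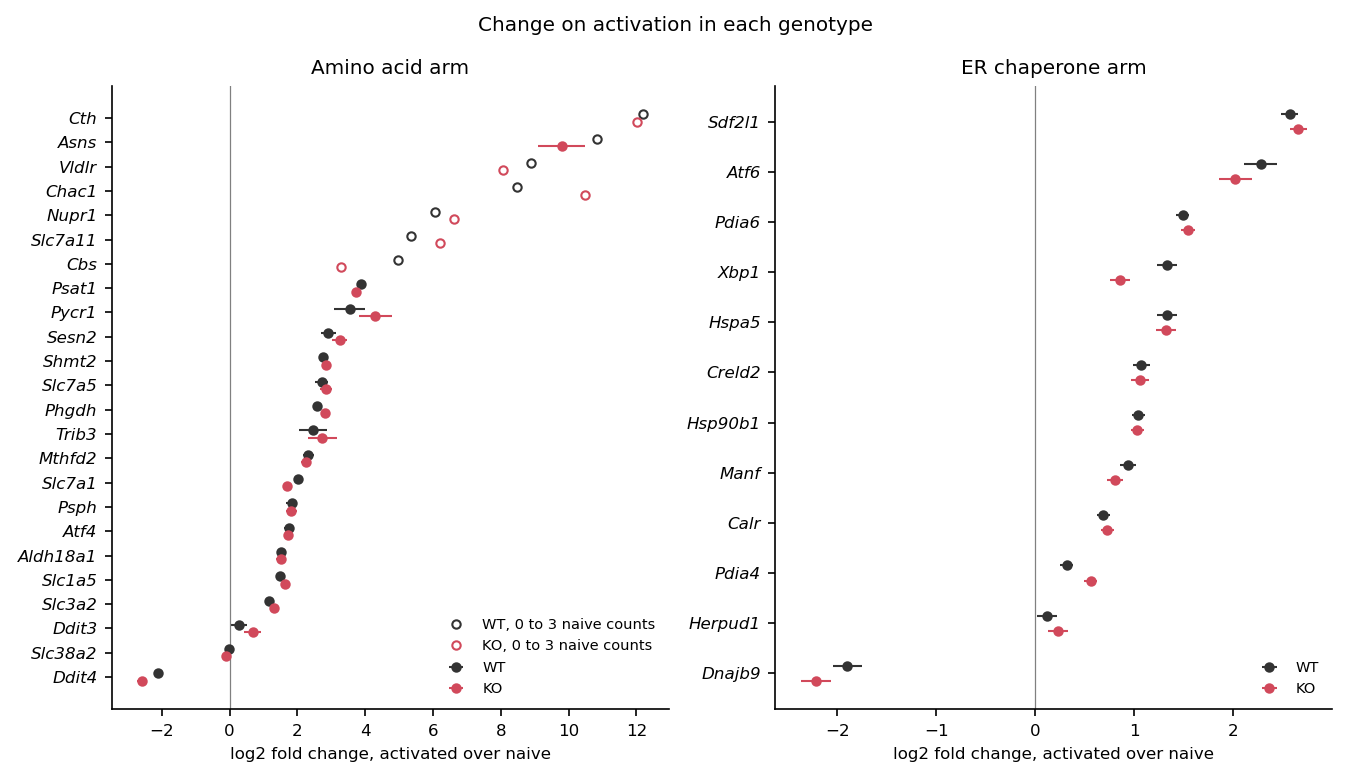
Log2 fold change of activated over naive cells for each member (bars are SE), in WT (black) and KO (red), with the amino acid arm on the left and the ER chaperone arm on the right. Open points had 0 to 3 counts in the naive group, so their fitted fold depends on the prior count and is no estimate of size. Most members lie above 0 at nearly the same place in both genotypes, and Ddit4 and Dnajb9 lie below.

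ATF4 binds, with C/EBP partners, to elements whose core reads TGATGNAA. This core was searched on both strands of promoter windows that run from 250 bases before to 50 bases after a gene's start in RefSeq (GRCm38.p6), and a window was found for 31 of the 36 members. In the amino acid arm 7 of 21 members with a window held it (Chac1, Trib3, Slc7a11, Asns, Nupr1, Pycr1 and Vldlr), in the ER arm 1 of 10 (Herpud1), and among all windows 3.97%. The cyclic AMP response element TGACGTCA, the site bound by CREB, was in no member's window and in 1.79% of all windows. The windows of Asns (chr6:7693160-7693459, minus strand), Chac1 (chr2:119350992-119351291, plus strand) and Slc7a11 (chr3:50443564-50443863, minus strand) are shown because chromatin opened at all 3 on activation, with the TGATGNAA matches in capitals, on either strand.
Asns: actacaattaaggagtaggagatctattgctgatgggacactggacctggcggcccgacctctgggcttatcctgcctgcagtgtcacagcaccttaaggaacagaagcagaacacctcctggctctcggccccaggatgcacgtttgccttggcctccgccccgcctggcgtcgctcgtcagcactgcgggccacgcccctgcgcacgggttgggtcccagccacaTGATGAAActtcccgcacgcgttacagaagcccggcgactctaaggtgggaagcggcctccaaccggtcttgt
Chac1: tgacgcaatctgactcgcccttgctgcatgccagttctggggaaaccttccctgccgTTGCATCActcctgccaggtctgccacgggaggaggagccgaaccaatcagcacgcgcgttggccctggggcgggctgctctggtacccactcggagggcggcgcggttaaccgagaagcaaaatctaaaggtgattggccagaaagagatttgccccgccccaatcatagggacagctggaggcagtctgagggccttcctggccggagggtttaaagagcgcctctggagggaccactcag
Slc7a11: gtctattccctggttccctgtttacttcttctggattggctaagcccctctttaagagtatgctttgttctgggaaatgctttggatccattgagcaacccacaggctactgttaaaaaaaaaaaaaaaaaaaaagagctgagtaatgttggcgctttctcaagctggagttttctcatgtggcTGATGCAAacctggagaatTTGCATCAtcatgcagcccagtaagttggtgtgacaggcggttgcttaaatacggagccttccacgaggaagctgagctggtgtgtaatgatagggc
The match in Asns starts 23 bases before the gene's start and that in Chac1 193 bases before, while Slc7a11 holds a pair of them in opposite orientations, at 66 and 47 bases before the start. A match is a description of these letters and does not show binding.

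Open chromatin was measured on sites that the authors deposited for the whole series, and a site overlapped the promoter window of 15 amino acid members and 9 ER members. At the promoters printed above, activation of WT cells raised the counts in the site. The Asns site was at 0.559, 0.797 and 1.08 CPM of counts in sites in naive and 30.7, 23.9 and 23.1 CPM in activated WT cells, a log2 fold change of 4.47 ± 0.20. The Chac1 site was at 1.85, 1.47 and 1.51 CPM and then at 61.9, 48.7 and 48.4 CPM, a log2 fold change of 4.48 ± 0.17. Slc7a11 went from 1.76, 2.98 and 1.30 CPM to 9.40, 7.83 and 6.64 CPM, a log2 fold change of 1.40 ± 0.21. No naive library reached the lowest activated library at these sites, and replicate 1 was again the highest activated WT library at all 3. Nupr1 at 3.92 ± 0.52 and Cbs at 0.99 ± 0.13 were also higher. In contrast, 9 sites of the arm were lower after activation, among them Ddit4 at -0.91, Trib3 at -0.87 and Psph at -0.87, although Trib3 and Psph RNA rose, and the Psat1 site did not pass at 0.08 ± 0.05. The median over the 15 sites was -0.25, against 0.54 over all tested sites, of which 89.9% were called, 51.4% as higher and 38.5% as lower. These folds depend on the scaling between naive and activated libraries: TMM scaling placed them a median of 0.56 below the log2 ratio of the plain CPM values, and upper-quartile scaling moved the median of all sites to 0.77. On plain CPM 8 of the 15 sites were higher and 7 lower, with Ddit4, Trib3 and Psph among the lower. The 5 sites that opened were those with the lowest naive levels, at 0.128 to 4.11 CPM, while the other 10 sites stood at 33.9 to 132 CPM in naive WT.

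**Figure D3:**
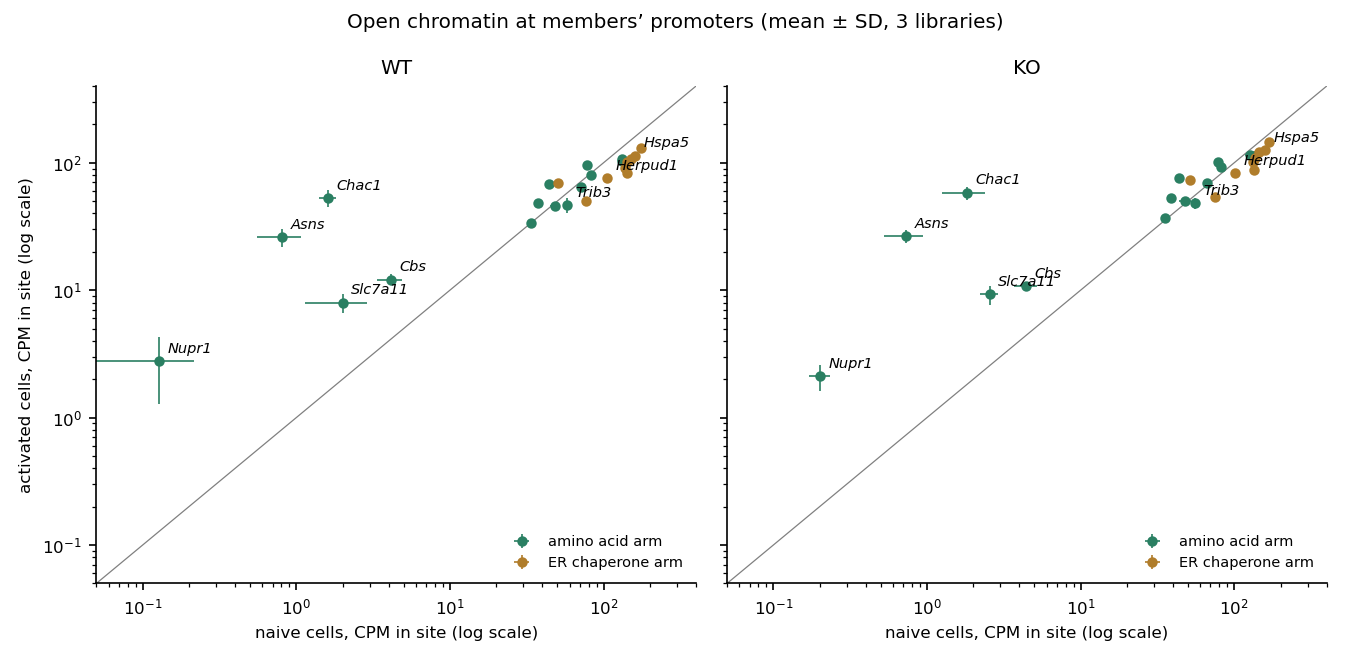
Counts in the promoter site of each member with a site, in CPM of counts in sites on log axes, for naive (x) and activated (y) cells of WT (left) and KO (right), as mean with SD of 3 libraries. The grey line marks equal levels. Asns, Chac1, Nupr1, Slc7a11 and Cbs lie above the line in both genotypes, and the sites of the ER arm, in brown, lie below it apart from the Sdf2l1 site, which lies above it.

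The ER chaperone arm also rose on activation of WT cells, by less. Of 12 members 10 rose, Dnajb9 fell and Herpud1 did not pass, against 42.3% of all tested genes higher and 40.3% lower, with a median log2 fold change of 1.06 against 0.03. In KO cells 11 rose and 1 fell, against 42.3% and 39.8% of all genes, with a median of 0.94 against 0.04. By the interaction test 0 of 12 differed, where 3.7% of all genes did (smallest adjusted p 0.0746, for Xbp1, with 2 members under an unadjusted p of 0.05, and 0 called with DESeq2). Hspa5, which encodes BiP, the main ER chaperone and a sensor of unfolded protein, was at 329, 339 and 380 CPM in naive and 1083, 895 and 894 CPM in activated WT cells. In KO it was at 311, 363 and 359 CPM and then at 1004, 912 and 915 CPM. The groups did not overlap in either genotype, and the log2 fold change was 1.33 ± 0.10 in WT and 1.32 ± 0.10 in KO. Sdf2l1, a partner of BiP, had 2.57 ± 0.09, Atf6, the sensor that is cut to a transcription factor, 2.28 ± 0.17, and Pdia6, a disulfide isomerase, 1.49 ± 0.07 in WT. Hsp90b1, the ER form of HSP90, had 1.04 ± 0.07, Manf, a secreted ER protein, 0.94 ± 0.08, and Calr, a lectin chaperone, 0.69 ± 0.06. Dnajb9, a BiP cochaperone that also restrains IRE1, went from 26.1 ± 2.92 to 7.62 ± 0.896 CPM, a log2 fold change of -1.90 ± 0.15. Hspa5 overlaps Rabepk and Pdia6 overlaps Atp6v1c2 in the annotation.

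The ER stress element, CCAAT and CCACG with 9 bases between them, at which ATF6 binds with NF-Y, was in the window of 5 of the 10 ER members with a window (Hspa5, Calr, Hsp90b1, Pdia6 and Creld2), in none of the 21 amino acid members and in 0.119% of all windows. The element TGACGTGG, bound by spliced XBP1 and ATF6, was in no member's window and in 0.676% of all. The windows of Hspa5 (chr2:34771840-34772139, plus strand) and Hsp90b1 (chr10:86705395-86705694, minus strand) are shown for their ER stress elements. That of Herpud1 (chr8:94386179-94386478, plus strand), an ER-associated degradation factor, is shown for its TGATGNAA core and was also picked for its RNA results below. Calr and Pdia4, whose windows lack this core, were likewise higher in forskolin-treated KO cells. Capitals mark the matches on either strand.
Hspa5: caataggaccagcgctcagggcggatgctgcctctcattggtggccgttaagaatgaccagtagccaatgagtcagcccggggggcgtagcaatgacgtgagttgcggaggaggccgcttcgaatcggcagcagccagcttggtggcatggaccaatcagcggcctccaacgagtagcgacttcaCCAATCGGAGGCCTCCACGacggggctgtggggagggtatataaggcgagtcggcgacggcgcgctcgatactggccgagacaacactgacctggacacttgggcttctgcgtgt
Hsp90b1: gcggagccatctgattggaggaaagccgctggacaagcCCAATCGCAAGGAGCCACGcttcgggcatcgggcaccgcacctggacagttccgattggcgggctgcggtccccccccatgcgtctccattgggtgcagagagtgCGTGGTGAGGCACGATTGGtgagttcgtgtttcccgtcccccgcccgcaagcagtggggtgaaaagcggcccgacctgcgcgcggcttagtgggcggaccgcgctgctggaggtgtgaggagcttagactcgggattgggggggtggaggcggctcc
Herpud1: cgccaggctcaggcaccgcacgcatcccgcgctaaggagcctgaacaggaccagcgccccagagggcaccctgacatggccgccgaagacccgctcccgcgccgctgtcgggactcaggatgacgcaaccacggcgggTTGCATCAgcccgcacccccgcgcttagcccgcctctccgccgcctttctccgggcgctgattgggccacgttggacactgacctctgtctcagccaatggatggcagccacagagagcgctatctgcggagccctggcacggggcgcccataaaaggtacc
The promoter sites of the ER arm were lower after activation in 8 of 9 cases in the scaled fit and by mean plain CPM, where 38.5% of all tested sites were lower, with a median fitted log2 fold change of -1.06 against 0.54, while Sdf2l1 did not pass and was higher on plain CPM. RNA of 6 of these 8 genes rose, the exceptions being Dnajb9 and Herpud1. On plain CPM the median log2 ratio of the 9 sites was -0.49, and TMM scaling placed the fitted folds a median of 0.56 below the plain ratios. All tested sites were not matched to these by naive level. The Hspa5 site was at 156, 163 and 161 CPM in naive and 113, 112 and 116 CPM in activated WT cells (log2 fold change -1.06 ± 0.05), without overlap.

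Before activation the genotypes were hard to tell apart in these genes. In naive cells 0 of 24 amino acid and 0 of 12 ER members passed the test, where 0.242% of all tested genes did (smallest adjusted p 0.608 and 1.0). Among the 24, Cth, Vldlr and Nupr1 had 0 counts in every naive library. Asns, Chac1, Cbs and Slc7a11 had at most 4 counts in a naive group. These members passed the low-count filter through activated libraries alone, with too few counts to test a genotype difference in naive cells. At an unadjusted p under 0.05 there was 1 amino acid member and 0 ER members, and DESeq2 called 0 of either. The median log2 fold change of KO over WT was -0.05 in the amino acid arm and 0.02 in the ER arm. Ddit4 had the smallest p, at 549, 669 and 465 CPM in WT and 784, 651 and 814 CPM in KO, and its groups overlapped (log2 fold change 0.40 ± 0.13, adjusted p = 0.608).

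In activated cells a single amino acid member and 3 ER members differed between genotypes, where 14.9% of all tested genes were called, 5.89% as higher and 9.04% as lower in KO. The split between all genes called as higher and lower was 706 and 1083, and 987 and 843 with upper-quartile scaling. Slc7a1, the arginine and lysine carrier, was the amino acid member. It was at 509, 455 and 479 CPM in WT and 392, 344 and 342 CPM in KO. Every KO library lay below every WT library, and the log2 fold change was -0.45 ± 0.09 (adjusted p = 0.00199, and at most 0.0169 over 18 alternatives). A fit with the replicate number as a block was also made, since same-numbered activated libraries deviated together. In it Ddit3 also passed as higher (0.38, adjusted p = 0.0499) and Vldlr as lower (-0.83, adjusted p = 0.0166). Vldlr was at 9.55, 4.27 and 4.09 CPM in WT and 5.02, 2.22 and 2.92 CPM in KO, so the groups overlapped while each KO library was below the WT library of its number. Without replicate 1 of both genotypes the amino acid counts were again 0 higher and 1 lower, the latter being Slc7a1.

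The other members called in neither fit had log2 fold changes of KO over WT close to 0 or too uncertain to call after activation. Atf4 had -0.09 ± 0.13, Asns -0.07 ± 0.29 and Chac1 0.04 ± 0.28 (adjusted p = 0.708, 0.907 and 0.953). The median over the 24 members was 0.00 against 0.01 for all tested genes.

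Among ER members of activated cells, Xbp1, which encodes the factor spliced by IRE1, was lower in KO. It was at 134, 108 and 109 CPM in WT and 94.0, 82.5 and 84.1 CPM in KO. No KO library reached the lowest WT library, and the log2 fold change was -0.46 ± 0.10 (adjusted p = 0.00282, at most 0.0212 over 18 alternatives). Sdf2l1 was at 79.3, 74.2 and 82.0 CPM in WT and 95.2, 97.2 and 97.6 CPM in KO (0.28 ± 0.07, adjusted p = 0.014). Pdia4, a disulfide isomerase, was at 151, 150.4 and 151 CPM in WT and 186, 176 and 166 CPM in KO (0.20 ± 0.06, adjusted p = 0.0448). The groups did not overlap for either gene, but Sdf2l1 lost its call without WT replicate 2, KO replicate 2 or KO replicate 3 (adjusted p up to 0.0802) and Pdia4 under 13 of 18 alternatives (up to 0.243). Hspa5 had -0.05 ± 0.10 (adjusted p = 0.817). Other lists moved in these libraries as well, and their part in the results was not tested. Markers of naive T cells summed to 1815 to 1973 CPM in WT and 772 to 791 CPM in KO, with 4 of 7 lower and 1 higher, and genes of heat shock and cell dissociation to 5958 to 6182 CPM in WT and 5377 to 5476 CPM in KO, with 4 of 12 lower and 1 higher. Markers of T cell activation summed to 4331 to 4404 CPM in WT and 3718 to 3822 CPM in KO, with 3 of 7 lower. Markers of CD4 T cells summed to 2947 to 3076 CPM in WT and 2614 to 2630 CPM in KO, with 3 of 8 lower and 0 higher. Plasma cell markers, a list for cells that depend on Xbp1, summed to 538 to 654 CPM in WT and 352 to 366 CPM in KO. Of the 9 markers 4 were tested, and 1 was lower. Jchain, Igha and Tnfrsf17 of this list were at 0 in WT, and Igha and Tnfrsf17 at 0 in KO. B cell markers summed to 108 to 134 CPM in WT and 173 to 200 CPM in KO, with 2 of 4 tested higher and Pax5 at 0 in KO.

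**Figure D4:**
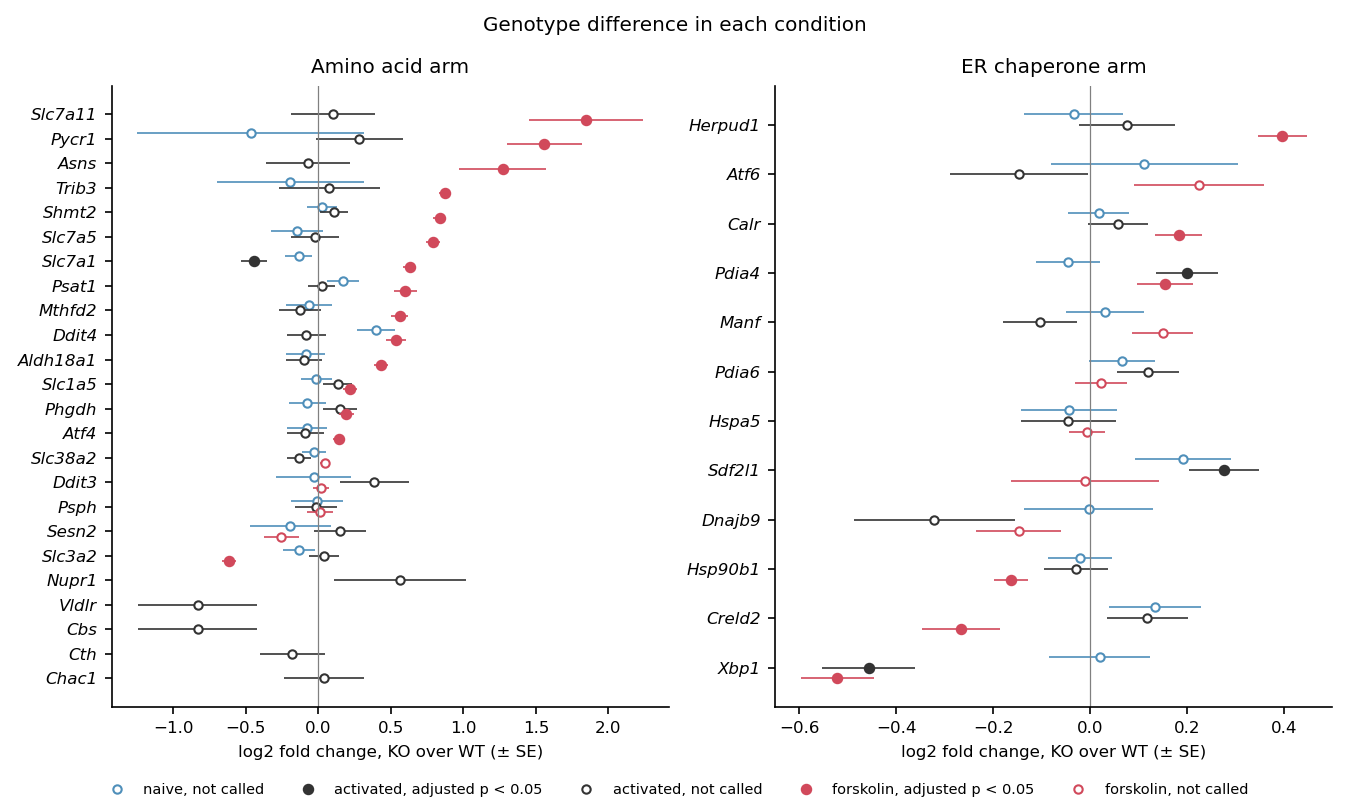
Log2 fold change of KO over WT with SE for each member in naive (blue), activated (black) and forskolin-treated (red) cells, with filled points for an adjusted p under 0.05. Naive values are left out for the 7 genes with a naive group of 0 to 3 counts, and 5 amino acid members have no forskolin value. In the amino acid arm the red points lie to the right of the black ones for 16 of 19 genes, with Slc3a2, Ddit3 and Sesn2 the exceptions, and in the ER arm points of all 3 conditions lie within about 0.5 of 0.

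Among forskolin-treated cells the amino acid arm was higher in KO. Of the 19 members that passed the filter on low counts 14 were higher and Slc3a2 was lower, while Ddit3, Sesn2, Psph and Slc38a2 did not pass the test, where 38.5% of all tested genes were called, 19.7% as higher and 18.8% as lower. Slc7a11 passed the filter through the KO libraries alone, and of the other 18 members 13 were higher. The median log2 fold change of the 19 was 0.54, against 0.00 for all tested genes. Since both groups received forskolin, this comparison is between genotypes and not of forskolin with its absence. The forskolin libraries are in a table of their own, so levels set beside naive or activated cells are a description. The 5 members that were not tested had few counts. Chac1 had 12 counts in WT and 34 in KO, a ratio of 2.2 with a 95% counting interval of 1.11 to 4.67, Cth 2 and 9 (0.724 to 33.2), Nupr1 1 and 4, Cbs 2 and 3, and Vldlr 0 in both.

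Other lists moved in the same libraries. Of 7 markers of T cell activation 6 were higher and 1 lower in forskolin-treated KO cells, and they summed to 126 to 143 CPM in WT and 315 to 367 CPM in KO, against 3718 to 4404 CPM in activated cells. The B cell markers summed to 170 to 192 CPM in WT and 328 to 340 CPM in KO, with 1 of 3 tested higher. Of 8 CD4 T cell markers 6 were lower and 1 higher in KO, of 7 naive T cell markers 3 were lower and 3 higher, and of 10 tested heat shock and dissociation genes 3 were lower and 1 higher. The part of these in the amino acid result was not tested.

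The regulator Atf4 was at 149, 151 and 139.9 CPM in forskolin-treated WT and 159, 168 and 165 CPM in KO cells. The groups did not overlap but lay close together, with a log2 fold change of 0.14 ± 0.04 (adjusted p = 0.00511), and the call was lost without WT replicate 3 (adjusted p = 0.0565). Trib3 was at 116, 103 and 105 CPM in WT and 196, 205 and 202 CPM in KO. Its KO libraries were all far above the WT ones (0.87 ± 0.04, adjusted p = 2.38e-16), and both genotypes were above their activated levels of 25.5 to 60.6 CPM. Ddit4 was at 34.8, 33.3 and 35.8 CPM in WT and 51.7, 53.2 and 48.4 CPM in KO, without overlap (0.54 ± 0.07, adjusted p = 2.44e-07). Ddit3 was at 78.3, 78.0 and 75.6 CPM in WT and 75.0, 79.4 and 83.9 CPM in KO, so the groups overlapped (0.02 ± 0.06, adjusted p = 0.826).

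Of the synthesis enzymes, Shmt2 was at 119, 132 and 116 CPM in WT and 218, 221 and 226 CPM in KO (0.84 ± 0.04, adjusted p = 8.71e-16). Mthfd2 was at 64.2, 73.2 and 64.4 CPM in WT and 104, 98.6 and 99.3 CPM in KO (0.56 ± 0.06, adjusted p = 3.44e-09). These mitochondrial 1-carbon enzymes were clearly separated by genotype. Psat1 was at 27.5, 26.6 and 23.7 CPM in WT and 41.2, 38.9 and 39.3 CPM in KO (0.60 ± 0.08, adjusted p = 2.35e-07), while Phgdh differed less, at 87.9, 96.7 and 95.6 CPM in WT and 109, 109 and 107 CPM in KO (0.19 ± 0.05, adjusted p = 0.00251). Psph, at 21.9, 22.8 and 21.9 CPM in WT and 21.4, 23.6 and 23.1 CPM in KO, overlapped (0.01 ± 0.09).

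The proline enzyme Aldh18a1 was at 85.1, 88.9 and 79.7 CPM in WT and 117, 114 and 116 CPM in KO (0.43 ± 0.05, adjusted p = 3.75e-08). Pycr1 was low, at 1.17, 1.74 and 1.93 CPM in WT and 5.34, 5.10 and 4.26 CPM in KO (1.56 ± 0.26, adjusted p = 1.71e-05). Asns was also low, at 2.48, 2.11 and 1.29 CPM in WT and 6.02, 5.42 and 2.81 CPM in KO (1.27 ± 0.30, adjusted p = 0.00138). No KO library of these 3 genes fell into the range of the WT libraries, though KO replicate 3 of Asns lay only just above it. All Asns levels with forskolin were far below the 118 to 234 CPM of activated cells.

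Transporters went in both directions. Slc7a5 was at 92.0, 96.3 and 86.3 CPM in forskolin-treated WT and 161, 153 and 166 CPM in KO cells (0.79 ± 0.05, adjusted p = 2.52e-14). Slc3a2, whose protein is the partner that carries Slc7a5 and Slc7a11 to the cell surface, was at 235, 245 and 211 CPM in WT and 155, 157 and 146 CPM in KO (-0.62 ± 0.05, adjusted p = 1.47e-08). The light chain was thus higher in KO and its heavy chain lower, with no overlap in either. Slc7a11 was at 0.522, 0.744 and 0.966 CPM in WT and 2.80, 1.49 and 3.99 CPM in KO (1.84 ± 0.39, adjusted p = 0.000401), and it passed the filter through the KO libraries alone, so it was tested only because it is high there. Slc7a1 was at 115, 122 and 104 CPM in WT and 179.9, 178 and 176 CPM in KO (0.63 ± 0.05, adjusted p = 8.93e-12), the opposite direction to activated cells. Slc1a5 was at 144, 131 and 152 CPM in WT and 161, 169 and 175 CPM in KO (0.22 ± 0.05, adjusted p = 0.000621). Slc38a2 was at 475 ± 15.2 CPM in WT and 497 ± 5.87 CPM in KO and did not pass (0.05 ± 0.04).

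**Figure D5:**
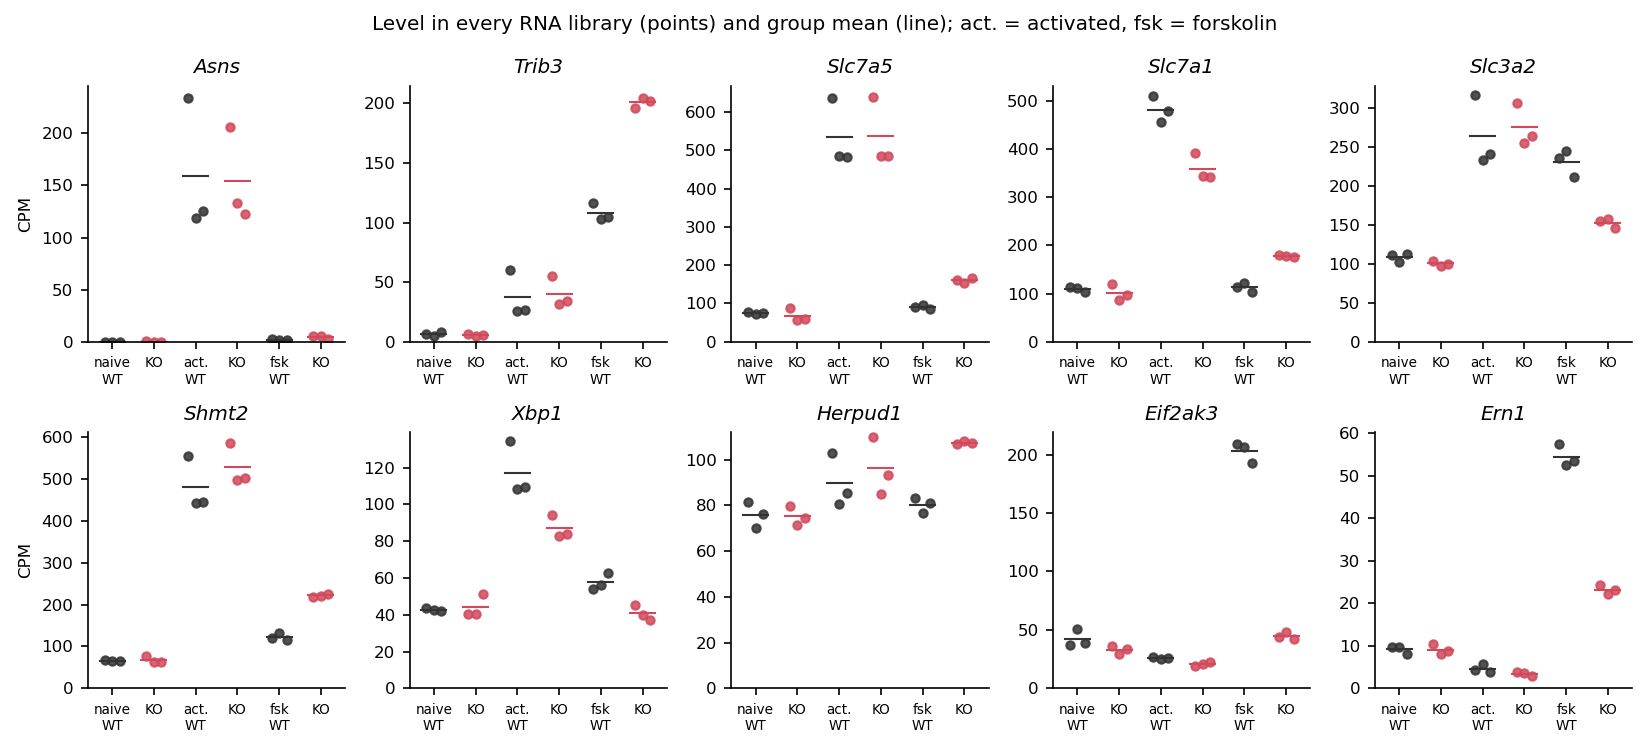
CPM in each RNA library (points) with the group mean (line) for 10 genes in naive, activated and forskolin-treated cells, WT in black and KO in red. With forskolin Slc7a5, Slc7a1, Shmt2 and Trib3 are higher in KO and Slc3a2, Xbp1, Eif2ak3 and Ern1 lower, and Asns is near 0 outside activated cells.

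The ER chaperone arm of forskolin-treated cells split evenly. Of 12 members 3 were higher and 3 lower in KO, shares near the 19.7% and 18.8% of all tested genes, with a median log2 fold change of 0.01 against 0.00 for all tested genes. Herpud1 was at 83.4, 76.8 and 81.1 CPM in WT and 107, 108 and 107 CPM in KO (0.40 ± 0.05, adjusted p = 1.66e-07). Calr was at 138, 157 and 134 CPM in WT and 168, 164 and 163 CPM in KO (0.18 ± 0.05, adjusted p = 0.00546). The groups did not overlap for either, although the call of Calr was lost without WT replicate 1 (adjusted p = 0.0575). Pdia4 was at 69.3, 64.7 and 67.5 CPM in WT and 74.8, 81.2 and 71.8 CPM in KO (0.15 ± 0.06, adjusted p = 0.034), a call lost under 6 of 11 alternatives (up to 0.232).

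On the lower side, Xbp1 was at 53.9, 56.4 and 62.8 CPM in WT and 45.4, 40.1 and 37.0 CPM in KO (-0.52 ± 0.08, adjusted p = 3.37e-06), without overlap and under all 11 alternatives. Creld2, an ER protein of the disulfide isomerase type, was at 30.003, 28.9 and 31.4 CPM in WT and 24.1, 27.3 and 25.0 CPM in KO (-0.27 ± 0.08, adjusted p = 0.00894). Hsp90b1 was at 382, 385 and 359 CPM in WT and 345, 337 and 338 CPM in KO (-0.16 ± 0.03, adjusted p = 0.000376). The groups of both genes were separate by a narrow margin, and the call of Creld2 was lost with DESeq2, without WT replicate 3 and without KO replicate 1 (adjusted p up to 0.0712). Hspa5, the gene most used as a readout of unfolded protein, was at 215, 218 and 202 CPM in WT and 220, 207 and 215 CPM in KO (-0.01 ± 0.04, adjusted p = 0.906). Xbp1 was thus lower in KO both after activation and with forskolin, and its promoter window held none of the 4 motifs searched.

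Whether the genotype difference itself differed between forskolin-treated and activated cells was tested in a fit over both tables. Of the 24 amino acid members 9 had a higher difference with forskolin and 1 a lower one, where 12.3% of all tested genes were higher and 5.82% lower (1548 and 734 genes, but 1123 and 1180 with upper-quartile scaling). Slc7a1 led by p, with 1.11 ± 0.12 (adjusted p = 1.54e-07), followed by Shmt2 at 0.76 ± 0.12 (9.28e-05), Psat1 at 0.61 ± 0.13 (0.00197) and Slc3a2 at -0.62 ± 0.14 (0.00243). Slc7a5 had 0.85 ± 0.21 and Mthfd2 0.73 ± 0.19, and these 6 passed under all 23 alternatives. Pycr1, Slc7a11, Aldh18a1 and Ddit4 passed as well, but lost their call under 15, 6, 3 and 3 of 23 alternatives. Atf4, Asns and Trib3 had differences of 0.27 ± 0.16, 1.39 ± 0.72 and 0.84 ± 0.40, which did not pass, although Asns passed with DESeq2 (adjusted p = 0.0111) and under the replicate block (adjusted p = 0.00176). In the ER arm Herpud1 was higher (0.36 ± 0.12, adjusted p = 0.0433) and Creld2 lower (-0.35 ± 0.12, adjusted p = 0.0428), calls lost under 12 and 11 alternatives. Xbp1 had -0.03 ± 0.14 (adjusted p = 0.927).

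The genes upstream of these arms were counted from 2 further lists. Of the sensor kinases, Eif2ak3, which encodes PERK, was at 209, 207 and 193 CPM in forskolin-treated WT and 44.1, 48.1 and 41.9 CPM in KO cells. All KO libraries lay far below all WT libraries, a log2 fold change of -2.21 ± 0.05 (adjusted p = 2.75e-24). In naive WT cells it was at 37.0, 50.8 and 39.0 CPM and in activated WT cells at 27.1, 25.2 and 26.0 CPM, so the WT level with forskolin was above both while the KO level was near the naive one. Ern1, which encodes IRE1 alpha, was also lower in KO, at 57.4, 52.4 and 53.5 CPM in forskolin-treated WT and 24.2, 22.1 and 23.1 CPM in KO cells (-1.25 ± 0.07, adjusted p = 1.4e-14), and both genotypes were above the 8.10 to 10.4 CPM of naive cells. The difference between forskolin-treated and activated cells was -1.81 ± 0.15 for Eif2ak3 and -0.79 ± 0.19 for Ern1 (adjusted p = 3.13e-09 and 0.00463). Eif2ak2 was slightly higher in forskolin-treated KO cells (0.23 ± 0.09, adjusted p = 0.0455, up to 0.293 over the alternatives), and Eif2ak1 and Eif2ak4 did not pass (adjusted p = 0.506 and 0.279). In activated cells none of the 4 kinases passed, at adjusted p of 0.058 for Eif2ak3, 0.107 for Eif2ak4, 0.138 for Eif2ak2 and 0.503 for Eif2ak1, although Eif2ak2 passed as lower under the replicate block (adjusted p = 0.00248).

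Ppp1r15a encodes GADD34, which brings the phosphatase that reverses eIF2 alpha phosphorylation. It was lower in KO after activation, at 46.8, 31.1 and 33.1 CPM in WT and 23.9, 18.2 and 23.1 CPM in KO (-0.79 ± 0.14, adjusted p = 0.000704). With forskolin it was at 56.4, 62.1 and 56.9 CPM in WT and 41.3, 39.7 and 39.3 CPM in KO (-0.56 ± 0.07, adjusted p = 3.98e-08). Neither comparison had overlapping groups. Atf3, a stress-induced factor downstream of ATF4, was at 112, 53.0 and 42.9 CPM in activated WT and 17.8, 8.88 and 10.5 CPM in activated KO cells. No activated KO library reached the lowest WT library, yet the adjusted p was 0.0533 (-2.50 ± 0.54), and it was 2.63e-08 under the replicate block and 1.88e-06 without replicate 1 of both genotypes.

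Of 36 further genes of the amino acid response in the tables, 4 of 34 tested were higher and 3 lower in activated KO, and 13 of 31 tested higher and 8 lower with forskolin, where 14.9% of all genes were called in activated cells and 38.5% with forskolin. Among those with the smallest p, Stc2, which encodes a secreted glycoprotein, was at 33.2, 34.2 and 40.2 CPM in activated WT and 86.1, 63.4 and 73.1 CPM in activated KO cells (1.03 ± 0.12). Sesn3 (-0.79 ± 0.09) and Sesn1 (0.54 ± 0.10), relatives of Sesn2, differed in opposite directions. With forskolin, Atf5, a factor regulated like ATF4, was at 53.0, 48.0 and 45.5 CPM in WT and 95.9, 103 and 98.8 CPM in KO (1.00 ± 0.06), and the cytosolic 1-carbon enzyme Mthfd1 was at 27.4, 29.9 and 30.9 CPM in WT and 59.6, 61.0 and 65.1 CPM in KO (1.05 ± 0.07). Of 40 further genes of the unfolded protein response, 1 of 39 tested was higher and 5 lower in activated KO, and 2 of 38 higher and 11 lower with forskolin, that is 15.4% and 34.2% called in either direction beside 14.9% and 38.5% of all genes. By direction, 5.89% of all genes were higher and 9.04% lower in activated KO, and 19.7% higher and 18.8% lower with forskolin. Edem1, which marks misfolded glycoproteins for degradation, was lower in both (-0.61 ± 0.07 and -0.31 ± 0.03), as was Creb3l2, a membrane-bound relative of ATF6 (-1.25 ± 0.19 and -0.82 ± 0.13). Serp1 (-0.58 ± 0.10) and Edem3 (-0.40 ± 0.11, lost under 4 of 18 alternatives) were lower in activated KO, and the lectin chaperone gene Canx was higher with forskolin (0.26 ± 0.03).

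Open chromatin at the members' promoters differed little between genotypes. In naive cells 0 of 14 tested amino acid sites and 0 of 9 ER sites passed, by edgeR on the deposited counts, where 2.1% of all tested sites did, 0.816% upward and 1.29% downward. No member site passed by the FDR in the authors' deposited table either, where 0.0171% of all sites did, 0.0108% upward and 0.00632% downward. No member site was under an unadjusted p of 0.05 by edgeR. With the replicate number as a block, which pairs these libraries, 0 of the 14 and 0 of the 9 passed again (smallest adjusted p 0.234 and 0.394), with 1 amino acid site under an unadjusted p of 0.05. In activated cells 6 of 15 amino acid sites and 5 of 9 ER sites were higher in KO by edgeR, where 35.2% of all tested sites were called, 15.1% as higher and 20.1% as lower. The split over all sites was 16063 and 21287, and 26679 and 17891 with upper-quartile scaling, which moved their median from 0.02 to 0.12. These differences were small, from 0.09 at Psph to 0.17 at Ddit3 on the log2 scale. The FDR in the authors' deposited table passed 0 of them, where 5.16% of all sites passed, 0.519% upward and 4.64% downward, and its fold, which is not scaled to depth and is turned here to KO over WT, was below 0 for Psph, Ddit4, Herpud1, Aldh18a1, Phgdh and Hsp90b1. The Asns site was at 30.7, 23.9 and 23.1 CPM in activated WT and 29.99, 24.7 and 24.5 CPM in activated KO cells, with overlapping groups (0.00 ± 0.13). No site overlapped the promoter windows of Xbp1, Slc3a2 or Shmt2, and at Slc7a1 the site did not pass in activated cells (0.07 ± 0.04, adjusted p = 0.21), where its RNA was lower in KO.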

How the data were processed

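RNA-seq was made with the NEBNext Ultra II RNA kit and ATAC-seq with the Active Motif kit, per the labels' protocols, and reads were placed on mm10, per the submitters' processing notes. The aligner, counter and peak caller are not given in the sources used here. For RNA the authors deposited whole-number counts per gene, without scaling, with one file for naive and activated cells and a separate file for forskolin-treated cells. Rows without a symbol held 0.128% to 0.159% of the counts in the former and were left out. For ATAC the authors deposited counts per site, log2 group means and a log2 fold of those counts, unscaled and WT minus KO when tested on the values, and a p-value and FDR per site from a test the labels do not name. The ATAC counts of both states share 110808 sites.

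The members and lists were chosen with earlier results of these data known. RNA counts were tested with edgeR 4.0.16 in R 4.3.3 (filterByExpr, TMM scaling, robust quasi-likelihood fit, Benjamini-Hochberg adjustment over all genes tested, threshold 0.05). A shared fit of 12 libraries covered naive and activated cells, another of 6 the forskolin cells, and a fit of all 18 the difference between forskolin and activated cells, which come from separate tables. ATAC counts were tested the same way. SE is the absolute log2 fold change over the root of F, and CPM uses plain totals. Count intervals are exact binomial at 95%, and the floor is 3 counts. The scripts were tested on simulated data.

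Values per library are given for members past a genotype test and for Atf4, Ddit3, Asns, Chac1, Hspa5 and Xbp1. Of the further genes, Eif2ak1 to Eif2ak4, Ern1, Ppp1r15a and Atf3 are named whatever their result, with up to 4 called genes of smallest p per list and genotype comparison, of which 1 is not reported here. Values of Vldlr, of naive Ddit4 and of the ATAC sites were chosen after they were seen. Alternatives were RLE and upper-quartile scaling, no low-count filter, DESeq2 1.42.0 or, for ATAC genotype comparisons, the authors' FDR, the replicate number as a block, and each library left out. Leaving out both activated replicates 1, done only in the RNA fit of naive and activated cells, was chosen after seeing the data. Same-numbered activated RNA libraries of the genotypes deviated together (correlation 0.556, 0.28 and 0.235), so the numbers were taken to pair them. This was also seen for ATAC in naive (0.35, 0.252 and 0.182) and activated cells (0.343, 0.106 and 0.154). Forskolin RNA had 0.161, 0.0775 and 0.217, with each WT library closest to the KO library of its number. Naive RNA had 0.412, 0.00388 and 0.0427. WT replicates 2 and 3 of naive RNA, WT replicate 3 of activated RNA and WT replicate 2 of activated ATAC were closest to a KO library of another number. The replicate block was still applied by number to the naive RNA libraries.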

Additional observations from a re-analysis of the deposited data

Results flagged for a closer look

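The genotype difference, as log2 of KO over WT, was compared between forskolin-treated and activated cells by the edgeR test of the difference itself. It differed in 12 members, where 18.1% of all tested genes were called, 12.3% as higher and 5.82% as lower. It was higher with forskolin for Slc7a11 (1.78), Pycr1 (1.31), Slc7a1 (1.11), Slc7a5 (0.85), Shmt2 (0.76), Mthfd2 (0.73), Ddit4 (0.66), Psat1 (0.61), Aldh18a1 (0.57) and Herpud1 (0.36). It was lower for Slc3a2 (-0.62) and Creld2 (-0.35). The calls of Slc7a11, Pycr1, Ddit4, Aldh18a1, Herpud1 and Creld2 were lost under some alternatives, as given above. Slc7a1 is the member that was lower in KO after activation and higher in KO with forskolin. The forskolin and activated libraries stand in separate tables, so differences in handling between those experiments cannot be told apart from the treatment.

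Of the further genes named, the same test gave -1.81 for Eif2ak3, -0.79 for Ern1, -0.49 for Sesn1, 1.14 for Mthfd1, 0.75 for Atf5, 0.56 for Serp1, 0.54 for Sesn3, 0.34 for Edem1 and 0.28 for Canx, the last of which lost its call with upper-quartile scaling. Between activated and naive cells the genotype difference was lower after activation for Creb3l2 (-1.41), Sesn3 (-0.74), Serp1 (-0.57) and Edem1 (-0.55), and for no member. The call of Serp1 was lost under 10 of 18 alternatives.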

How the results depend on the processing

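Counts of members called moved as follows. In the amino acid arm of activated cells, 0 higher and 1 lower became 1 and 2 with the replicate block, and 0 to 2 higher with a library left out. The 1 lower member became 1 to 2 with a library left out on activation of KO cells and in the forskolin comparison. In the ER arm of activated cells, 2 higher became 1 with RLE scaling, without a low-count filter and without both activated replicates 1, and 0 to 2 with a library left out, while by interaction 0 lower became 1 without the filter. With forskolin its 3 higher members became 1 to 4 with a library left out. For forskolin minus activated, 1 higher ER member became 0 with upper-quartile scaling and DESeq2 and 0 to 2 with a library left out, and 1 lower became 0 without the filter and 0 to 1 with a library left out. For ATAC in activated cells, 6 amino acid and 5 ER sites became 0 and 0 by the authors' FDR, 0 to 9 and 4 to 7 with a library left out, and the ER sites 9 with upper-quartile scaling. With that scaling 1 ER site rose on WT activation, where 0 had, and the Mthfd2 site reversed to 0.0446. The authors' unscaled folds reversed Psph (-0.0377), Ddit4 (-0.0309), Herpud1 (-0.0262), Aldh18a1 (-0.0130), Phgdh (-0.00364) and Hsp90b1 (-0.00223). The causes were not tested. Over all tested features the block moved naive calls from 1565 to 6171 ATAC sites and DESeq2 from 29 to 59 genes. The block changed no other call of a member by RNA apart from Asns in forskolin minus activated. Of 229 results on single genes and sites, 3701 values under an alternative kept direction and side of the threshold, 155 lost it, 48 gained it and 7 reversed. For genes near the floor of 3 counts in a group, the size of a fold is known only as a bound or a wide interval.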
